A study of Mus musculus with 15 samples.

Results

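The mature miRNAs described here are cut from hairpins that lie inside introns of protein-coding genes used by neurons. They are the listed arms of miR-218 (hosts Slit2 and Slit3), miR-149 (Gpc1), miR-139 (Pde2a), miR-326 (Arrb1), miR-346 (Grid1), miR-342 (Evl), miR-330 (Eml2) and miR-335 (Mest). Members were taken by name, as every arm of these 8 families, which gave 12 of the 396 miRNAs in the deposited table. The families were chosen with earlier results of these data known. Small RNA was sequenced from the midbrain of 6-month-old C57BL/6 mice. The 7 A30P samples (replicates 1, 2, 3, 4, 6, 7 and 8) came from mice labelled A30P alpha-synuclein +/+, and the 8 WT samples (replicates 1 to 8) from wild-type mice. The labels do not say how the A30P form was introduced, which promoter drives it, or whether each sample was a separate animal. The p-values therefore cover only sample-to-sample spread, part of which may be technical. Alpha-synuclein sits at presynaptic terminals, and its A30P substitution causes inherited Parkinson's disease in people.

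An intronic miRNA is usually transcribed as part of its host gene's primary transcript. The Drosha complex cuts the hairpin from the intron, Dicer removes the loop, and 1 or both arms of the resulting duplex are loaded into an Argonaute protein, where bases 2 to 8 (the seed) pair with target mRNAs. The level of a mature arm therefore depends on host transcription, on processing and on the stability of that arm, and arms of 1 hairpin can differ widely in level. In brain the hosts serve axon guidance and the cell surface (Slit2, Slit3, Gpc1), signalling and the synapse (Pde2a, Arrb1, Grid1) and the cytoskeleton (Evl, Eml2), while Mest is an imprinted gene expressed from the paternal copy.

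All 12 arms matched a mature sequence in RefSeq (GRCm38.p6). They are shown because the seed sets which arms could share targets, and because their base composition is used below. Capitals mark the seed.
mmu-miR-218-5p: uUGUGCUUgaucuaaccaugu
mmu-miR-149-5p: uCUGGCUCcgugucuucacuccc
mmu-miR-139-5p: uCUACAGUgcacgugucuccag
mmu-miR-139-3p: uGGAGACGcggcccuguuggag
mmu-miR-326-3p: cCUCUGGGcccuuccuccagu
mmu-miR-330-5p: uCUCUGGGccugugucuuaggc
mmu-miR-330-3p: gCAAAGCAcagggccugcagaga
mmu-miR-346-5p: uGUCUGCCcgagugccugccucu
mmu-miR-342-5p: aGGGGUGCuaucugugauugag
mmu-miR-342-3p: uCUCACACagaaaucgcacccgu
mmu-miR-335-5p: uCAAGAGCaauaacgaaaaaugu
mmu-miR-335-3p: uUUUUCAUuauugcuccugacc
miR-330-5p and miR-326-3p carry the same seed, CUCUGGG, although their hosts differ. No other pair of members shares a seed, and no other listed miRNA with a matched sequence (349 of 396) carries the seed of any member. G and C made up 30.4% of the bases of miR-335-5p, 36.4% of miR-335-3p and 38.1% of miR-218-5p. They were as frequent as A and U in miR-342-5p and made up 52.2% to 68.2% of the others, with miR-139-3p highest.

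By the GENCODE vM21 annotation (GRCm38), each hairpin lies in an intron on the strand of its host and in no exon of the coding transcripts that span it. Mir330 (chromosome 7, 19181465 to 19181562) sits in intron 1 of 18 of Eml2, an intron of only 485 bases. Mir346 (chromosome 14, 34894609 to 34894706) sits in intron 2 of 15 of Grid1, which is 123044 bases long. Mir335 (chromosome 6, 30741299 to 30741396) is in intron 2 of 3 of the Mest transcript used, Mir342 (chromosome 12, 108658620 to 108658718) in intron 3 of 12 of Evl, Mir326 (chromosome 7, 99552269 to 99552363) in intron 1 of 15 of Arrb1, and Mir149 (chromosome 1, 92850378 to 92850443) in intron 1 of 8 of Gpc1. Mir139 (chromosome 7, 101475376 to 101475443) is in intron 2 of 30 of Pde2a and also within the overlapping gene model Gm45837. Mir218-1 (chromosome 5, 48223942 to 48224051) is in intron 14 of 35 of Slit2 and Mir218-2 (chromosome 11, 35616816 to 35616925) in intron 14 of 35 of Slit3. Both give the same miR-218-5p, so its reads cannot be split between the hosts. Host mRNA was not analysed here.

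Values are normalized counts, which are read counts that the authors divided by a size factor per library. The A30P libraries were shallower, with 21731 to 3500431 reads of listed miRNAs (median 92827), against 724813 to 9762286 (median 5081436.5) in WT libraries. In A30P libraries 1 read was worth 0.174 to 56.4 normalized counts, so that a listing at 0 allows a level of up to 169 (3 reads) in the shallowest, against 0.0848 to 0.806 in WT libraries. The 4 A30P libraries under 100000 reads were replicates 1, 2, 4 and 7, and the deepest was replicate 6. WT replicates 1 and 8, the shallowest WT libraries, also stood apart in composition. Fold changes by limma are given with and without the shallow A30P libraries. All WT columns carry the letter tag C and all A30P columns the letter tag D. If the tag marks a batch, batch and genotype cannot be told apart.

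The members together gave 14 to 20518 reads per A30P library, against 6038 to 96525 per WT library. That was 0.206% ± 0.180 of the listed reads in A30P (SD, n = 7; 0.0644% to 0.586%), against 1.02% ± 0.203 in WT (SD, n = 8; 0.742% to 1.35%). No A30P library reached the lowest WT share. Between 3 and 12 of the arms were detected per A30P library, against all 12 in every WT library. Detection fell over the whole table too, with 122 to 395 of the 396 miRNAs detected per A30P library and 375 to 396 per WT library.

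**Figure D1:**
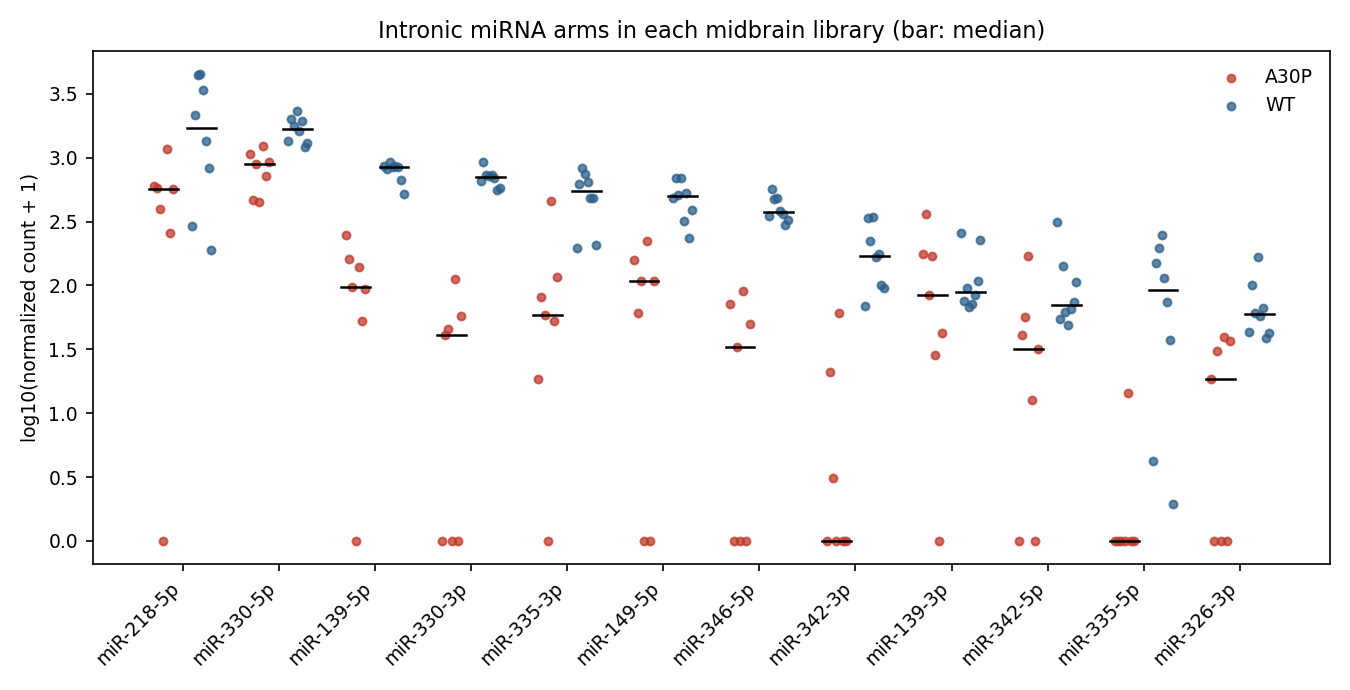
Each point is 1 library, with log10(normalized count + 1) on the y axis and the 12 arms on the x axis in order of their WT mean; A30P points are left of WT points, black bars are group medians, and points at 0 are libraries with no read. The A30P points lie below all WT points for miR-139-5p, miR-330-3p, miR-149-5p, miR-346-5p and miR-342-3p, and the groups overlap for the other 7 arms.

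The comparison addressed how the midbrain levels of these miRNAs in A30P mice compare with those in WT mice. Levels were lower in A30P for 10 of the 12 arms and higher for none by limma on log2(normalized count + 1) with Benjamini-Hochberg adjustment over all 396 miRNAs, at an adjusted p of 0.05. Most of the table moved the same way, since 71.0% of all miRNAs were called lower in A30P and 8.33% higher, so the members' share is read against that background. The median log2 fold change of the members was -3.59, beside -2.57 over all 396. In this fit the largest falls were those of miR-330-3p, miR-342-3p and miR-346-5p, while DESeq2 and edgeR with TMM scaling put miR-335-5p first. miR-139-3p and miR-218-5p did not pass. With TMM scaling, which centres the bulk of the table nearer to 0, edgeR on the whole reads recovered from the values called fewer: 5 of the 12 were lower and none higher, against a background of 35.8% lower and 19.5% higher among 318 miRNAs tested. These 5 were miR-330-3p, miR-335-5p, miR-342-3p, miR-346-5p and miR-139-5p. The median edgeR log2 fold change was -0.90 over the members and -0.75 over all tested. Of the other fits, limma with TMM scaling called 7 of the 12 lower (background 54.3%), limma scaled to the library total 11 (79.0%), edgeR with the deposited size factors 11 (61.6%), DESeq2 11 (48.2%) and limma-voom with TMM scaling 5 (27.7%). In bulk tissue, fewer cells of a type and less RNA per cell cannot be told apart.

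Of the axon guidance and cell surface hosts, Slit2 and Slit3 encode secreted ligands of Robo receptors, and miR-218, known to repress ROBO1 in human cells, is enriched in motor neurons. mmu-miR-218-5p had 0, 571 and 1169 normalized counts (lowest, median and highest) in A30P libraries, against 189, 1744 and 4511 in WT libraries. The groups overlapped, and only the A30P library with no read lay below the lowest WT library. By limma its log2 fold change was -2.59 ± 1.19 (SE; 95% interval -5.08 to -0.10; adjusted p = 0.0529), which does not pass. WT replicates 1 and 8 held 291 and 189, below the range of 824 to 4511 in the other WT libraries. Without them limma gave -3.41 (adjusted p = 0.0183). Leaving out a single library also brought it past the threshold by limma, with adjusted p of 0.0484, 0.0488 and 0.0422 without A30P replicate 1, 2 or 6, and 0.0341 and 0.0295 without WT replicate 1 or 8. In the other direction, the limma value was -1.29 (adjusted p = 0.0934) without A30P replicate 4, which has no read of it, and -1.03 (adjusted p = 0.338) without the 4 shallow A30P libraries. edgeR with TMM scaling gave -0.53 (adjusted p = 0.402).

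Gpc1 encodes glypican 1, a heparan sulfate proteoglycan anchored in the cell membrane. Its miRNA, miR-149-5p, had 0, 107 and 222 normalized counts in A30P libraries, against 234, 498 and 693 in WT libraries. The groups did not overlap, though the highest A30P library came close to the lowest WT library. The limma log2 fold change was -3.89 ± 1.12 (SE, adjusted p = 0.00388), and -1.72 (adjusted p = 0.00474) without the 4 shallow A30P libraries, but edgeR with TMM scaling gave -1.01 (adjusted p = 0.0936), which does not pass.

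Among the signalling and synaptic hosts, Pde2a encodes a phosphodiesterase that breaks down cyclic AMP and cyclic GMP and is stimulated by cyclic GMP. The 5p arm of its hairpin was among the steadiest members in WT. miR-139-5p had 0, 95.9 and 246 normalized counts in A30P libraries, against 521, 840 and 922 in WT libraries. Every A30P library was below every WT library, also when each A30P library was given at least 3 reads. Limma gave a log2 fold change of -3.72 ± 0.89 (SE, adjusted p = 0.000969), or -2.86 (adjusted p = 4.83e-05) without the 4 shallow A30P libraries, and edgeR with TMM scaling gave -1.66 (adjusted p = 0.00562).

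The opposite arm of the same hairpin behaved differently. miR-139-3p had 0, 83.1 and 362 normalized counts in A30P libraries, against 66.3, 88.7 and 254 in WT libraries, and its means were 123 ± 125 in A30P (SD, n = 7) and 122 ± 74.1 in WT (SD, n = 8). The groups overlapped, with A30P replicate 2 highest at 362 (18 reads) and WT replicates 1 and 8 at 254 and 224. Limma gave a log2 fold change of -1.04 ± 1.00 (SE; 95% interval -3.13 to 1.05; adjusted p = 0.34), or -1.21 (adjusted p = 0.071) without the 4 shallow A30P libraries, and edgeR with TMM scaling gave 0.61 (adjusted p = 0.433). Without WT replicates 1 and 8, a setting chosen after seeing the data, edgeR with TMM scaling gave 1.77 (adjusted p = 0.00959), so the direction depends on the scaling and on these libraries. The authors' deposited table gives it a log2 fold change of -2.34 (adjusted p = 4.63e-06).

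Grid1 encodes the delta 1 glutamate receptor, a synaptic organizer. miR-346-5p had 0, 32.0 and 89.8 normalized counts in A30P libraries, against 297, 372 and 567 in WT libraries. The groups did not overlap, and the highest A30P library, replicate 6, was far below the lowest WT library. By limma the log2 fold change was -5.30 ± 1.06 (SE, adjusted p = 0.000216), or -2.91 (adjusted p = 0.000139) without the 4 shallow A30P libraries, and edgeR with TMM scaling gave -2.04 (adjusted p = 0.00243).

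Arrb1 encodes beta-arrestin 1, which desensitizes G protein-coupled receptors. miR-326-3p was the least abundant member in WT, at 37.6 to 167 normalized counts (52 to 1435 reads), against 0 to 38.7 (0 to 222 reads) in A30P libraries. It had reads in 4 of 7 A30P libraries. In the 4 shallow A30P libraries 3 reads would have been worth more than the lowest WT level, so zeros there do not set it below WT. Its log2 fold change by limma was -3.19 ± 0.94 (SE, adjusted p = 0.00487), but without the 4 shallow A30P libraries it was -0.84 (adjusted p = 0.171), and edgeR with TMM scaling on all libraries gave -0.09 (adjusted p = 0.883).

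Of the cytoskeletal hosts, Evl encodes an Ena/VASP protein that promotes actin filament growth. In human colorectal cancer, miR-342 is silenced together with EVL. mmu-miR-342-3p had 0, 0 and 59.6 normalized counts in A30P libraries, against 67.7, 170 and 343 in WT libraries. Only 3 A30P libraries had any read of it, replicates 2 and 3 with 1 read each and replicate 6 with 342 reads. The groups did not overlap, yet in 2 of the A30P libraries 3 reads would have been worth more than the lowest WT level. Its log2 fold change by limma was -5.64 ± 0.92 (SE, adjusted p = 2.79e-05), and edgeR with TMM scaling gave -2.11 (adjusted p = 0.0081). Without the 4 shallow A30P libraries limma gave -4.83 (adjusted p = 0.0012) and edgeR with TMM scaling -2.04 (adjusted p = 0.0594).

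mmu-miR-342-5p, the other arm, had 0, 30.9 and 169 normalized counts in A30P libraries, against 48.3, 68.8 and 311 in WT libraries. The highest A30P value, in replicate 4, stands on 3 reads, and the highest WT value was that of replicate 1. By limma the log2 fold change was -2.57 ± 1.02 (SE, adjusted p = 0.028), and it did not pass without WT replicates 1 and 8 (-2.23, adjusted p = 0.0776) or by edgeR with TMM scaling (-0.79, adjusted p = 0.372). Leaving out A30P replicate 1, A30P replicate 7 or WT replicate 1 alone also ended the call by limma, at adjusted p of 0.0726, 0.0678 and 0.0514. Limma gave -1.64 (adjusted p = 0.0396) without the 4 shallow A30P libraries.

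Eml2 encodes a microtubule-associated protein. The arms of its hairpin differed in the size of their falls. miR-330-3p had 0, 40.2 and 111 normalized counts in A30P libraries, against 559, 707 and 922 in WT libraries. Every A30P library was below every WT library, and this held with 3 reads granted to each A30P library. Its limma log2 fold change of -6.07 ± 1.06 (SE, adjusted p = 5.74e-05) was the largest of the members in that fit, and edgeR with TMM scaling gave -2.72 (adjusted p = 0.000204). Without the 4 shallow A30P libraries limma gave -3.38 (adjusted p = 2.47e-05), a smaller fall than those of miR-342-3p and miR-335-5p in the same fit.

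miR-330-5p, from the other arm, was the second most abundant member in WT and the best covered in A30P, with reads in all 7 libraries. It had 452, 884 and 1232 normalized counts in A30P libraries, against 1209, 1691 and 2337 in WT libraries. The groups overlapped only through A30P replicate 6, which exceeded the lowest WT library. By limma the log2 fold change was -1.10 ± 0.34 (SE, adjusted p = 0.0063), a smaller fall than the median of all miRNAs, and edgeR with TMM scaling gave 0.11 (adjusted p = 0.828), so the call and its direction depend on the scaling. Limma without the 4 shallow A30P libraries gave -0.72 (adjusted p = 0.0768), which does not pass. Because miR-330-5p shares its seed with miR-326-3p, their sum was taken too. It was 837 ± 309 normalized counts in A30P (SD, n = 7) and 1761 ± 433 in WT (SD, n = 8), of which miR-330-5p made up 97.9% in A30P and 96.0% in WT.

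Mest encodes a protein of the alpha/beta hydrolase family. miR-335, known as a suppressor of metastasis in human breast cancer cells, was represented mainly by its 3p arm. miR-335-3p had 0, 57.5 and 461 normalized counts in A30P libraries, against 194, 551 and 830 in WT libraries. The groups overlapped only through A30P replicate 6, at 461, since the other 6 A30P libraries reached at most 116. The limma log2 fold change was -3.47 ± 0.96 (SE, adjusted p = 0.00299), or -1.68 (adjusted p = 0.036) without the 4 shallow A30P libraries, while edgeR with TMM scaling gave -0.77 (adjusted p = 0.204).

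miR-335-5p was found in 1 A30P library only, replicate 6, with 13.4 normalized counts (77 reads), against 0.940, 92.9 and 249 normalized counts in WT libraries. In every other A30P library 3 reads would have been worth more than the lowest WT level, so the zeros there do not set it below WT. In A30P replicates 4 and 7 they would have been worth 169 and 154, more than the WT median. WT replicates 8 and 1 held 3 and 4 reads of miR-335-5p, so that the groups overlapped. Limma gave a log2 fold change of -4.97 ± 1.01 (SE, adjusted p = 0.000255), and -6.30 (adjusted p = 1.23e-06) without those WT libraries. edgeR with TMM scaling gave -2.75 (adjusted p = 0.01). Without the 4 shallow A30P libraries limma gave -4.23 (adjusted p = 0.0237) and edgeR with TMM scaling -2.88 (adjusted p = 0.0803).

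**Figure D2:**
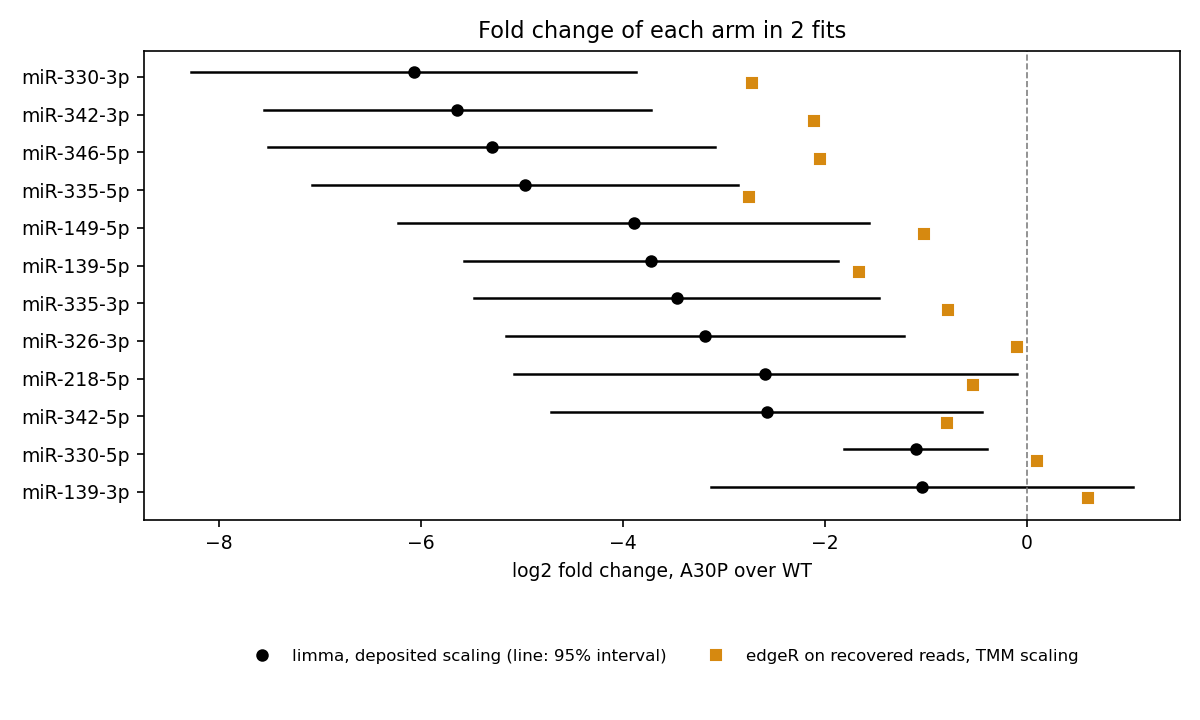
Log2 fold change of A30P over WT (x axis) for each arm (y axis), as black circles with 95% intervals from limma on the deposited scaling and as orange squares from edgeR on the recovered reads with TMM scaling. The squares lie to the right of the circles for all 12 arms, by an amount that takes miR-330-5p and miR-139-3p past 0, to 0.11 and 0.61.

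Set against the WT range in a way that needs no average, the groups did not overlap for 5 of the 12 arms, with every A30P library below every WT library, as for 23.7% of all miRNAs. These were miR-330-3p, miR-139-5p, miR-346-5p, miR-342-3p and miR-149-5p. The deepest A30P library, replicate 6 with 3500431 listed reads, lay below all WT libraries for 7 arms, namely these 5, miR-342-5p and miR-139-3p, and within the WT range for the other 5. Over all miRNAs it lay below the WT range for 35.6%. In this library miR-330-3p had 111 normalized counts on 636 reads, miR-139-5p 138 on 792 reads and miR-346-5p 89.8 on 516 reads, so their low values there do not rest on a few reads. The same 3 arms were called lower under each of the 33 other fits tried, most of which were limma on largely the same libraries. How many of all miRNAs were called lower under every fit was not counted. By edgeR with TMM scaling without the 4 shallow A30P libraries, these were the 3 of 12 called lower. That is close to the background of 22.2%. Without WT replicates 1 and 8 the same test called 5 lower and 1 higher, against backgrounds of 34.8% and 24.1%. By limma without the shallow libraries 8 of the 12 were called lower, against 52.3% of all miRNAs, and without WT replicates 1 and 8 it was 10, against 74.7%.

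As a share of the library's own listed reads, which does not use the deposited scaling, 11 of the 12 arms were lower in A30P by an exact permutation test over 6435 splits (two-sided, adjusted over 396 miRNAs), all but miR-139-3p, and the background was 71.2%. miR-330-3p made up 0.00446% ± 0.00652 of listed reads in A30P (SD, n = 7) and 0.1027% ± 0.0190 in WT (SD, n = 8; exact permutation adjusted p = 0.000932). miR-218-5p made up 0.0565% ± 0.0628 in A30P and 0.271% ± 0.201 in WT (n = 7 and 8, exact permutation adjusted p = 0.0193). miR-148a-3p and miR-151-3p took a large part of the A30P reads. With both left out of the denominator, 8 arms were lower, against a background of 55.6%, and miR-342-5p, miR-330-5p and miR-218-5p no longer passed. Without the 4 shallow A30P libraries 5 arms were lower (background 33.8%), and without WT replicates 1 and 8 it was 10 (background 71.7%).

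By the authors' deposited table, the 12 arms included 7 lower in A30P at an adjusted p of 0.05 and none higher, beside 34.1% of all miRNAs called lower. The log2 fold changes in the authors' deposited table ran from -3.17 for miR-342-5p to 0.62 for miR-218-5p. They place both arms of miR-139 close together, at -2.48 for miR-139-5p and -2.34 for miR-139-3p in the authors' deposited table, whereas the mean of the deposited normalized counts was 7.08-fold lower in A30P for the 5p arm and nearly equal in both groups for the 3p arm.

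The balance between arms of 1 hairpin does not use the scaling or the reads of other miRNAs. It still varied with the library. WT replicates 1 and 8 had the lowest 5p shares of WT for miR-139 and miR-335 and the highest for miR-342. For miR-330 they did not stand apart, at 67.5% and 69.0%. Of the 8 families, 4 had both arms listed (miR-330, miR-139, miR-335 and miR-342), and libraries with at least 10 reads of the hairpin were used. The hairpins of miR-330 and miR-139 are printed because their arm balance differed between the groups; capitals mark the 5p arm and then the 3p arm (RefSeq, GRCm38.p6, both on the plus strand of chromosome 7).
Mir330: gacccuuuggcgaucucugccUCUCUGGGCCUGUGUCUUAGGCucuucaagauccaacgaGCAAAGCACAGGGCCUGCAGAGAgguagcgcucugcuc
Mir139: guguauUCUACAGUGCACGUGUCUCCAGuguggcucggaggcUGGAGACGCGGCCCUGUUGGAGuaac
The 5p arm made up 91.8%, 94.7% and 100% (lowest, median and highest) of miR-330 reads in 6 A30P libraries, against 67.5%, 69.1% and 76.4% in 8 WT libraries. The groups did not overlap. Such separation was not particular to miR-330. Only full separation gives the smallest p possible, which is 0.000311 for 7 against 8 libraries by the exact permutation test. miR-30a, miR-30c, miR-434 and miR-664, for example, reached it, with differences of -50.85, -61.33, 60.04 and 57.43 points. How many of all hairpins separated in this way was not counted, but 68.4% of the 76 tested were called in either direction. For miR-330 the mean was 95.5% ± 3.70 in A30P (SD, n = 6) and 70.4% ± 3.08 in WT (SD, n = 8), a difference of 25.1 points (exact permutation test, two-sided, p = 0.000666, adjusted p = 0.00253 over 76 hairpins). In the deepest A30P library, replicate 6, the share was 91.8% of 7712 reads, with a 95% Wilson interval of 91.1% to 92.4%, which covers counting error only.

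The miR-139 hairpin moved the other way. Its 5p arm made up 58.3%, 30.8%, 53.6%, 83.5% and 69.2% of reads in A30P replicates 1, 2, 3, 6 and 8, against a lowest, median and highest of 69.9%, 90.9% and 92.7% in WT libraries. The groups overlapped, because A30P replicate 6 lay above WT replicates 1 and 8, at 77.3% and 69.9%. The mean was 59.1% ± 19.6 in A30P (SD, n = 5) and 86.5% ± 8.44 in WT (SD, n = 8), a difference of -27.4 points (exact permutation test, two-sided, adjusted p = 0.0169). Without the 4 shallow A30P libraries it was -17.7 points (exact permutation adjusted p = 0.0723).

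For the other hairpins the test did not pass. The 5p arm of miR-335 had 0 of 27, 77 of 2723 and 0 of 45 reads in A30P replicates 3, 6 and 8, and its share averaged 0.943% ± 1.63 in A30P (SD, n = 3) and 12.6% ± 8.89 in WT (SD, n = 8; exact permutation adjusted p = 0.0823). The counts of 0 allow shares of up to 12.5% and 7.87% (95% Wilson intervals). Leaving out WT replicate 1 or 8, at 1.64% and 0.452%, gave adjusted p of 0.0469 and 0.0461 by the same exact permutation test. The 5p share of miR-342 was 96.3%, 16.4% and 100% in the same A30P libraries, against 13.8% to 82.1% in WT libraries (exact permutation adjusted p = 0.193). A shift of arms was common in this table, since 68.4% of the 76 hairpins tested were called, 31.6% with a higher and 36.8% with a lower 5p share in A30P.

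**Figure D3:**
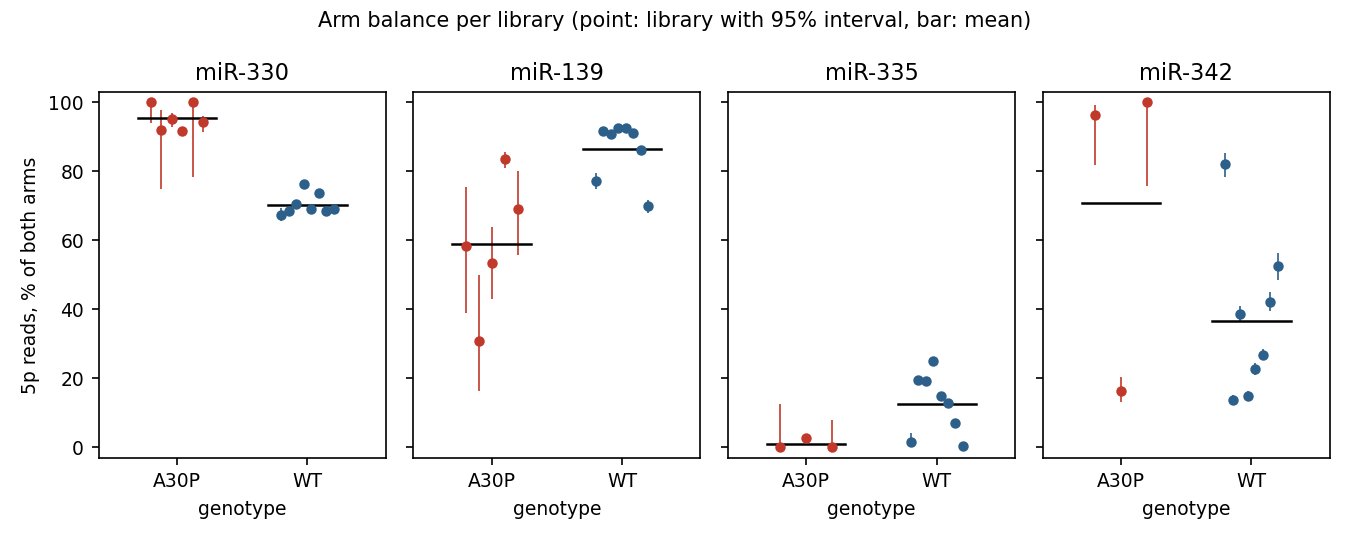
The share of 5p reads among the reads of both arms (y axis, percent) in each library with at least 10 reads of the hairpin, with A30P left and WT right in each panel; thin lines are 95% Wilson intervals and black bars group means. For miR-330 all A30P points (91.8% to 100%) lie above all WT points (67.5% to 76.4%), and for miR-139 the A30P points spread from 30.8% to 83.5%.

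Within WT, the members ranked by mean normalized count were miR-218-5p (2133 ± 1765, SD, n = 8), miR-330-5p (1690 ± 394), miR-139-5p (793 ± 131), miR-330-3p (698 ± 112), miR-335-3p (525.6 ± 232), miR-149-5p (481 ± 164), miR-346-5p (405 ± 92.8), miR-342-3p (188 ± 106), miR-139-3p (122 ± 74.1), miR-342-5p (107 ± 87.7), miR-335-5p (102.8 ± 91.2) and miR-326-3p (71.3 ± 43.4). Mature miRNAs have nearly the same length, so these levels need no length correction, although ligation and amplification can favour some sequences. Of the 11 neighbouring pairs in this order, only miR-330-5p above miR-139-5p and miR-346-5p above miR-342-3p held in 8 of 8 WT libraries with a difference larger than either SD.

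The spread within WT was uneven. The highest WT library exceeded the lowest by a small factor for miR-330-3p, from 559 to 922 normalized counts, and by a large one for miR-335-5p, from 0.940 to 249. WT replicates 1 and 8 were the lowest 2 WT libraries for miR-335-5p, miR-335-3p and miR-218-5p, the 3 members with the least G and C. They were also the lowest 2 for miR-342-3p, at 67.7 and 95.3 normalized counts, although G and C make up 52.2% of its bases. At 254 and 224 they were the highest 2 for miR-139-3p, the member with the most, but not for the next members by G and C content, since miR-326-3p was 0.716 and 0.707 times its WT median in them and miR-346-5p 0.94 and 0.876 times. miR-139-3p was 2.87 and 2.53 times its WT median in them, and miR-218-5p 0.167 and 0.108 times. Over 149 miRNAs with a matched sequence and a WT mean of at least 100, Spearman's rho between G and C content and the level relative to the WT median was 0.66 and 0.704 in WT replicates 1 and 8, 0.291 and 0.385 in replicates 6 and 7, and -0.338 to -0.502 in replicates 2 to 5. In the A30P libraries it was 0.129 to 0.315, over 86 to 149 miRNAs. Between G and C content and the limma log2 fold change, rho was 0.15 over 349 miRNAs and 0.10 over the 12 members. Taking the edgeR fold changes (TMM scaling, log2) instead, it was 0.17 over 280 miRNAs and 0.34 over the members. The part of base composition in the results was not tested.

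**Figure D4:**
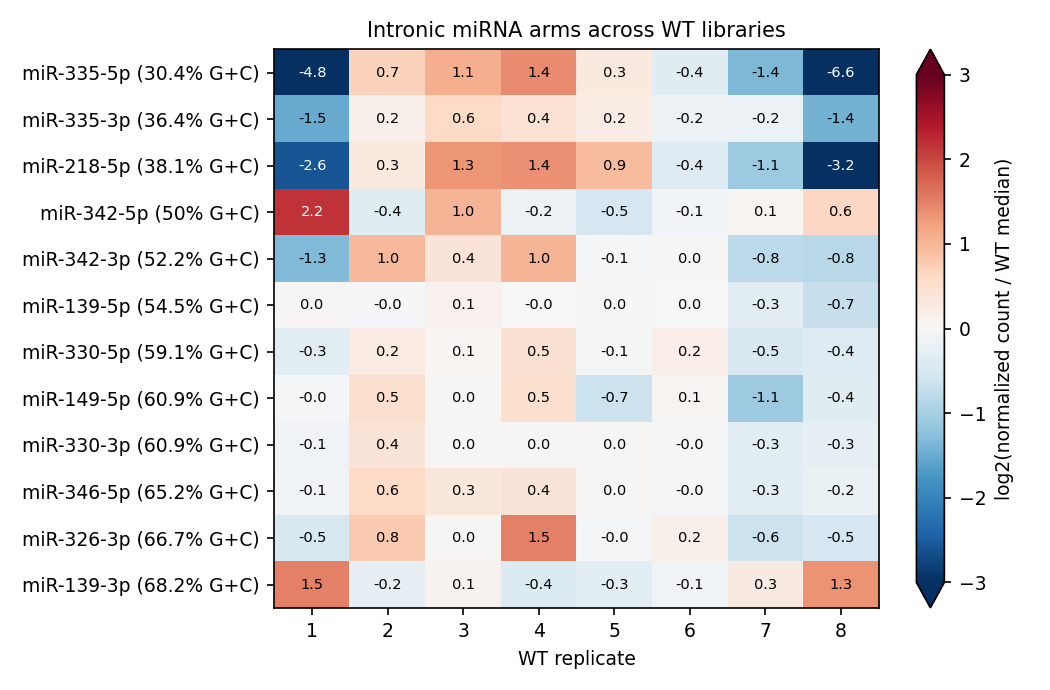
Log2 of the normalized count over the arm's WT median in each WT library (columns), for the 12 arms ordered from the lowest G and C content at the top to the highest at the bottom (rows); red is above and blue below the median, and the colour scale ends at 3 in either direction. Columns 1 and 8 are blue for miR-335-5p, miR-335-3p and miR-218-5p, less deeply so for miR-342-3p, and red for miR-139-3p and miR-342-5p. Several other arms, among them miR-326-3p and miR-330-5p, are pale blue in both columns.

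Across the 8 WT libraries, the miRNAs most like the leading arm of each family were found among 168 others with a WT mean of at least 100, leaving out miR-326, whose arm has a lower mean. miR-218-5p ranked the libraries exactly as miR-411-5p, miR-384-3p and miR-181d-5p did (Spearman's rho 1.0). Its pattern was not particular to these, since 45 of the 168 miRNAs compared reached a rho of 0.9. miR-335-3p was most like miR-34c-5p (0.976), miR-98-5p and miR-7b-5p (0.952 each). miR-342-3p was most like miR-484, miR-410-3p and miR-221-3p (0.952 each, with 11 miRNAs tied at that value). miR-346-5p was most like miR-125b-5p (0.952), miR-330-3p and miR-107-3p (0.929 each). miR-330-5p was most like miR-125b-5p, miR-410-3p and miR-344-3p (0.929 each), and miR-149-5p like miR-423-3p, miR-330-5p (0.905 each) and miR-125b-5p (0.881). miR-139-5p had no close match, with miR-128-3p at 0.833, miR-24-3p at 0.714 and miR-340-3p at 0.69. Between the arms of 1 hairpin, rho over the WT libraries was 0.905 for miR-335, 0.738 for miR-330, -0.19 for miR-139 and -0.548 for miR-342 (n = 8 each). These values share library depth and base composition and are descriptions only.

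Other intronic miRNAs of neuronal hosts are miR-128, miR-153, miR-204, miR-338, miR-488, miR-592, miR-448 and miR-708. Of their 14 listed arms, 9 were lower and 1 higher in A30P by limma (median log2 fold change -2.80), and edgeR with TMM scaling called 5 lower and 1 higher of 12. Arms of miR-128, miR-204 and miR-338 are counted again below, as markers of neurons, choroid plexus and ciliated cells, and oligodendrocytes. The counts of these lists are therefore not independent. miR-128-3p, a neuronal miRNA of the R3hdm1 and Arpp21 introns, averaged 5405 ± 2575 normalized counts in A30P (SD, n = 7) and 45400 ± 11620 in WT (SD, n = 8), a limma log2 fold change of -3.14 (adjusted p = 3.65e-08). The arms of miR-708, from an intron of Tenm4, went in opposite directions, with limma log2 fold changes of 4.43 (adjusted p = 4.1e-09) for the 3p and -5.48 (adjusted p = 7.03e-06) for the 5p arm. Intronic miRNAs of broadly expressed hosts had 25 lower and 4 higher of 30 arms by limma (median log2 fold change -3.09), and 14 lower and 5 higher of 27 by edgeR with TMM scaling. Examples were miR-151-3p of Ptk2, at a limma log2 fold change of 6.31 (adjusted p = 2.2e-07), miR-26a-5p of Ctdsp genes, at -4.47 (adjusted p = 2.42e-07), and miR-191-5p of Dalrd3, at -5.19 (adjusted p = 5.2e-07). These counts stand beside 71.0% of all miRNAs called lower by limma and 35.8% by edgeR with TMM scaling.

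Markers of cell types moved with the groups too, and their counts by limma stand beside 71.0% of all miRNAs called lower. Of the 9 listed neuron arms (miR-124, miR-9, miR-128 and miR-138), 8 were lower in A30P by limma, and their summed level was 5305 to 50930 normalized counts in A30P libraries, against 36480 to 177000 in WT libraries. Lower levels were called for 2 of 4 oligodendrocyte arms (summed level 1298 to 5637 in A30P, 4878 to 11200 in WT), for the only myeloid arm listed, miR-146a-5p (0 to 153 in A30P, 110 to 723 in WT), and for 3 of 5 choroid plexus and ciliated cell arms (154 to 1128 in A30P, 1231 to 5233 in WT). The oligodendrocyte arms called were those of miR-338, while miR-219a-2-3p did not pass (limma log2 fold change -0.73, adjusted p = 0.0593). Of 4 vascular arms, 3 were lower and 1 was higher (summed level 4628 to 18850 in A30P, 2928 to 16070 in WT). Of 4 erythroid arms, 2 were lower and 1 higher (228 to 2459 in A30P, 329 to 1584 in WT). Of 2 muscle arms, 1 was higher (339 to 2855 in A30P, 179 to 2448 in WT), and the liver arm did not pass (0 to 68.2 in A30P, 9.72 to 44.7 in WT). By edgeR with TMM scaling (background 35.8% lower and 19.5% higher) the counts differed. Lower levels were called for 3 of 6 neuron arms tested, 2 of 4 oligodendrocyte arms, the myeloid arm and 2 of 5 choroid plexus and ciliated cell arms. The oligodendrocyte arms were again those of miR-338, and miR-219a-2-3p had an edgeR log2 fold change of 0.47 (adjusted p = 0.344). None of the 4 vascular and 3 erythroid arms tested was lower, and 1 of each, both muscle arms and the liver arm were higher in A30P. The markers' part in the members' results was not tested.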

How the data were processed

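The authors deposited 1 table for the series. Per the file headers it holds a signal value per library for 396 miRNAs (4 under a combined name), and the authors' own comparison (log2 fold change, its error, p-value and adjusted p-value). The group means deposited beside them and the test statistic are treated as scores of unstated scale and were not used. WT columns are named CT, read as control and matched by number. Per the labels' protocols, libraries were made from Trizol-extracted RNA with a TruSeq kit, but the column names begin with NEB, so the kit stays unknown. The submitters' processing notes name mm9 and DESeq (no version). An aligner and a counter were not given in the sources used. Coordinates printed are those of GRCm38, not mm9. The deposited signal values are reads divided by a size factor, and whole reads were recovered for all 15 libraries (100% whole within 1e-05). Depth therefore means reads of listed miRNAs. Intervals and floors cover counting error only.

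limma (3.58.1, trend and robust) was fitted to log2(value + 1), for all 396 miRNAs (mean of at least 1 in either group), with Benjamini-Hochberg adjustment. Fold changes are on this scale. The pseudocount of 1 shrinks changes between low values, but a library with no read enters at 0 whatever its depth, and several members with such zeros fell further here than by DESeq2. edgeR (4.0.16), DESeq2 (1.42.0) and limma-voom on the recovered reads were alternatives, in R 4.3.3, with other scalings, pseudocounts, filters, a replicate block and libraries left out. edgeR with TMM scaling called 114 lower and 62 higher of 318 miRNAs tested. Shares and 5p shares were compared by exact permutation (scipy 1.17.1, numpy 2.4.6, pandas 2.3.3, Python 3.11.15) and plotted with matplotlib 3.10.9. The scripts were tested on simulated data. For the fits, a pass was required only of limma at equal depth, not at the unequal depths of these libraries. Sequences came from RefSeq and host introns from GENCODE vM21. Every member is named. The comparison miRNAs are up to 3 per list by smallest p, and the most alike miRNAs up to 3 per family by rho, all with a WT mean of at least 100. The members and lists were chosen with earlier results of these data known.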

Additional observations from a re-analysis of the deposited data

Results flagged for a closer look

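The groups of values examined were each arm's level in each genotype, and the 5p shares with at least 4 libraries. Of these 30 groups, 5 held a library far from the others of its genotype by Dixon's test. Chance flags about 1 in 20 groups of normally distributed values. These values hold zeros and come from libraries of unequal depth, so that rate cannot be set against them. miR-342-5p stood apart in A30P replicate 4, at 169.3 normalized counts (3 reads), where the nearest A30P library had 55.4. It also stood apart in WT replicate 1, at 310.5, where the nearest WT library had 139.9. The other 3 were in A30P replicate 6, the deepest A30P library. miR-342-3p had 59.55 there, against at most 20.1 in the other A30P libraries, miR-335-5p had 13.41, against 0 in the others, and miR-335-3p had 460.7, against at most 115.8. With 0 in every other A30P library, the flag of miR-335-5p was fixed in advance. The zeros of the shallow A30P libraries allow levels of up to 169 normalized counts (3 reads), above the values of miR-342-3p and miR-335-5p in replicate 6.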

How the results depend on the processing

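The count of 10 lower arms by limma was 7 to 11 under the other scalings of the same fit, DESeq2, edgeR with the deposited size factors, other pseudocounts and filters, the shallow A30P libraries or WT replicates 1 and 8 left out, and the authors' deposited table. It was 9 to 11 with each library left out, with 0 higher throughout. It dropped to 5 by edgeR and by limma-voom with TMM scaling, and, in alternatives chosen after seeing the data, to 3 by edgeR without the 4 A30P libraries under 100000 reads and 5 (with 1 higher, miR-139-3p) without WT replicates 1 and 8. Over all miRNAs the median log2 fold change shifted by -0.38 with scaling to the total, 0.85 with TMM scaling and 0.01 with the median ratio. The sign turned for miR-139-3p (0.061 by limma with TMM scaling, 0.61 by edgeR, 0.71 by limma-voom, 1.77 by edgeR without WT replicates 1 and 8), miR-330-5p (0.028, 0.11, 0.13, 0.37 in the same 4 fits, and 0.25 by edgeR without the shallow A30P libraries), miR-326-3p (0.058 without the shallow A30P and 0.12 without the WT libraries, edgeR) and miR-342-5p (0.40 by edgeR without the WT libraries). In the authors' deposited table the log2 fold change was 0.092 for miR-335-3p and 0.62 for miR-218-5p. The cause was not tested.

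The count of 11 lower shares was 11 with each library left out, 10 without WT replicates 1 and 8, and 5 without the shallow A30P libraries, which leaves 3 against 8. The share of miR-139-3p turned to a difference of 0.01395 points without miR-148a-3p and miR-151-3p in the denominator. The count of 2 hairpins with a changed 5p share was 2 to 3 with each library left out, 3 at 1 read, 1 at 50 reads (2 hairpins could be tested) and 1 without the shallow A30P libraries.

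The replicate numbers gave no sign of pairing the samples: deviations of same-numbered libraries correlated at -0.18 to 0.368, and 1 of 7 correlated best with its own number. With 4 A30P libraries under 100000 reads, this check could miss a real pairing. With the replicate block, limma called 10 arms lower and the share test 9. The 5p share test called 0 with the block, where the smallest p that sign flips can give is 0.0312 for miR-330 and 0.0625 for miR-139. Depth limits the low arms most, since 3 reads were worth up to 169 normalized counts in A30P libraries.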
